A study of Apostichopus japonicus with 12 samples.

Results

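The ubiquitin conjugation and deubiquitination enzymes of the sea cucumber Apostichopus japonicus were read in intestine RNA from control animals and from animals held for 6 h in warm water, in oxygen-poor water, or in both. They comprised 73 of the 26461 gene models in the deposited expression table. A model was included where the name of its best Swiss-Prot protein match was that of a ubiquitin-conjugating enzyme E2, a ubiquitin-like modifier-activating enzyme (E1), a polyubiquitin, a ubiquitin carboxyl-terminal hydrolase or a ubiquitin thioesterase. Names with the word proteasome were left out. The rule itself used no expression value, though the members were chosen with earlier results of these data known. The set held 4 E1 models, 24 E2 models, 8 polyubiquitin models, 31 hydrolases of the USP type, 3 of the UCH type and 3 thioesterases of the OTU type. The USP type here includes models named CYLD and MINDY, which Swiss-Prot also lists as ubiquitin carboxyl-terminal hydrolases. Symbols below are those of the Swiss-Prot match, so they name the most similar protein of another species and not a curated sea cucumber gene.

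Ubiquitin is a small protein that cells attach to other proteins. An E1 enzyme activates it at the cost of ATP, an E2 enzyme carries it, and an E3 ligase helps to pass it to a target. Polyubiquitin genes encode head-to-tail ubiquitin repeats that are cut into single units. Deubiquitinases cut these precursors and remove ubiquitin from targets. Chains of ubiquitin can send a protein to the proteasome or to autophagy, and other linkages serve DNA repair and immune signalling. In animal cells, heat-damaged proteins are a known load on this system, and polyubiquitin genes are known heat-responsive genes in several species.

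Each of the 4 groups had 3 libraries. Control animals were at 18 °C; the dissolved oxygen of the controls is left unstated here because the series text assigns them 3 mg/L, the level of the low-oxygen group. High-temperature animals were at 26 °C and 7 mg/L, low-oxygen animals at 18 °C and 3 mg/L, and animals under combined stress at 26 °C and 3 mg/L. Animals weighed about 100 g, and the labels give no age, sex or genetic strain and name no transgene. RNA was taken per individual, but the labels do not say whether individuals of a group came from separate tanks or whether a library held more than one animal. The p-values below therefore measure only the spread between these libraries, which may be partly technical.

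Levels are in FPKM, fragments per kilobase of model length and per 1000000 fragments, as the authors deposited them. Libraries held between 8146906 and 10855050 gene-assigned fragments. Combined libraries 1 and 3 stood apart: the library size implied by their FPKM values was 0.529 and 0.526 of their gene-assigned total, against 0.935 to 1.58 in the other 10. Digestive enzyme genes were present in every library, and 1 of their 59 models was at 0 throughout. Their summed levels were 565 to 2597 FPKM in control and 375 to 1265 FPKM in combined libraries. High-temperature libraries were at 376 to 662 FPKM and low-oxygen libraries at 476 to 803 FPKM. Summed markers of other cells differed between the groups in deposited FPKM. The marker sums are given on that scale only and were not rescaled to equal FPKM totals. The 59 ciliated-cell models summed to 71.5 to 207 FPKM in control and 239 to 390 FPKM in high-temperature libraries. Low-oxygen libraries were at 183 to 253 FPKM and combined libraries at 198 to 1430 FPKM. Of 54 tested, 49 were higher on average than in control at high temperature, 45 at low oxygen and 52 under combined stress. Connective tissue markers, 3 of 22 at 0 throughout, summed to 793 to 998 FPKM in control and 1179 to 1840.4 FPKM in combined libraries. They were at 651 to 1023 FPKM at high temperature and 707 to 964 FPKM at low oxygen. The 7 muscle markers summed to 118 to 239 FPKM in control and 261 to 380 FPKM in combined libraries. These were at 169 to 224 FPKM at high temperature and 162 to 235 FPKM at low oxygen. The 6 germ line markers, 1 of them at 0 throughout, had summed levels of 16.1 to 20.9 FPKM at low oxygen, above the 6.87 to 14.9 FPKM of the controls, the 9.42 to 15.8 FPKM of warm water alone and the 3.94 to 11.9 FPKM of combined stress. The part of these cell types in the results below was not tested. In such bulk tissue, fewer cells of a type and less RNA per cell cannot be told apart.

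Of the 73 models, 66 passed the filter on low values, which was 1 FPKM in at least 3 of the 12 libraries, and were tested among 15615 genes. The 7 that did not pass were usp37, both USP48 models, UBP23, 1 assembled polyubiquitin model and a pair of polyubiquitin models on chromosome 1. The highest mean among these 7 was 4.0 FPKM, for usp37, and came from 1 library: low-oxygen library 1 was at 42.6 FPKM and no other exceeded 0.993. Tested members were expressed at a median of 6.38 FPKM, against 4.12 FPKM for all genes tested. By class, the median level of all models was 12.1 FPKM for the OTU type, 11.7 for E2, 6.69 for the UCH type, 6.16 for E1, 3.71 for the USP type and 1.69 for polyubiquitin. Of the 22 members at or above a mean of 10 FPKM, 13 were E2 models and 3 were of the USP type.

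No member passed the test in any comparison. The test was limma on log2(FPKM + 1), with Benjamini-Hochberg adjustment over all 15615 genes and a threshold of 0.05. Against control, 0 of 66 members rose and 0 fell at high temperature, where 0.0448% of all genes tested rose and 0.0256% fell. At low oxygen 0 members rose and 0 fell, against 0% and 0.00640% of all genes. Under combined stress 0 members rose and 0 fell, against 0.596% and 0.192% of all genes. The number of members with an unadjusted p under 0.05 was 1 at high temperature, 2 at low oxygen and 4 under combined stress, where 6.58%, 6.30% and 13.8% of all genes were under it. A second test, limma voom on fragment counts recovered from the FPKM values, also called 0 members in every comparison. It used the library sizes implied by the FPKM values, so it kept the scaling of the main test. Without adjustment, the fitted differences of members from control had 95% confidence intervals with a median half-width of 0.96 on the log2 scale. After adjustment over all genes, larger differences could also go uncalled, such as that of the E2 model UBE2V2 at 1.60 under combined stress. With 3 libraries a group, differences above 0.96 could therefore be missed too.

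**Figure D1:**
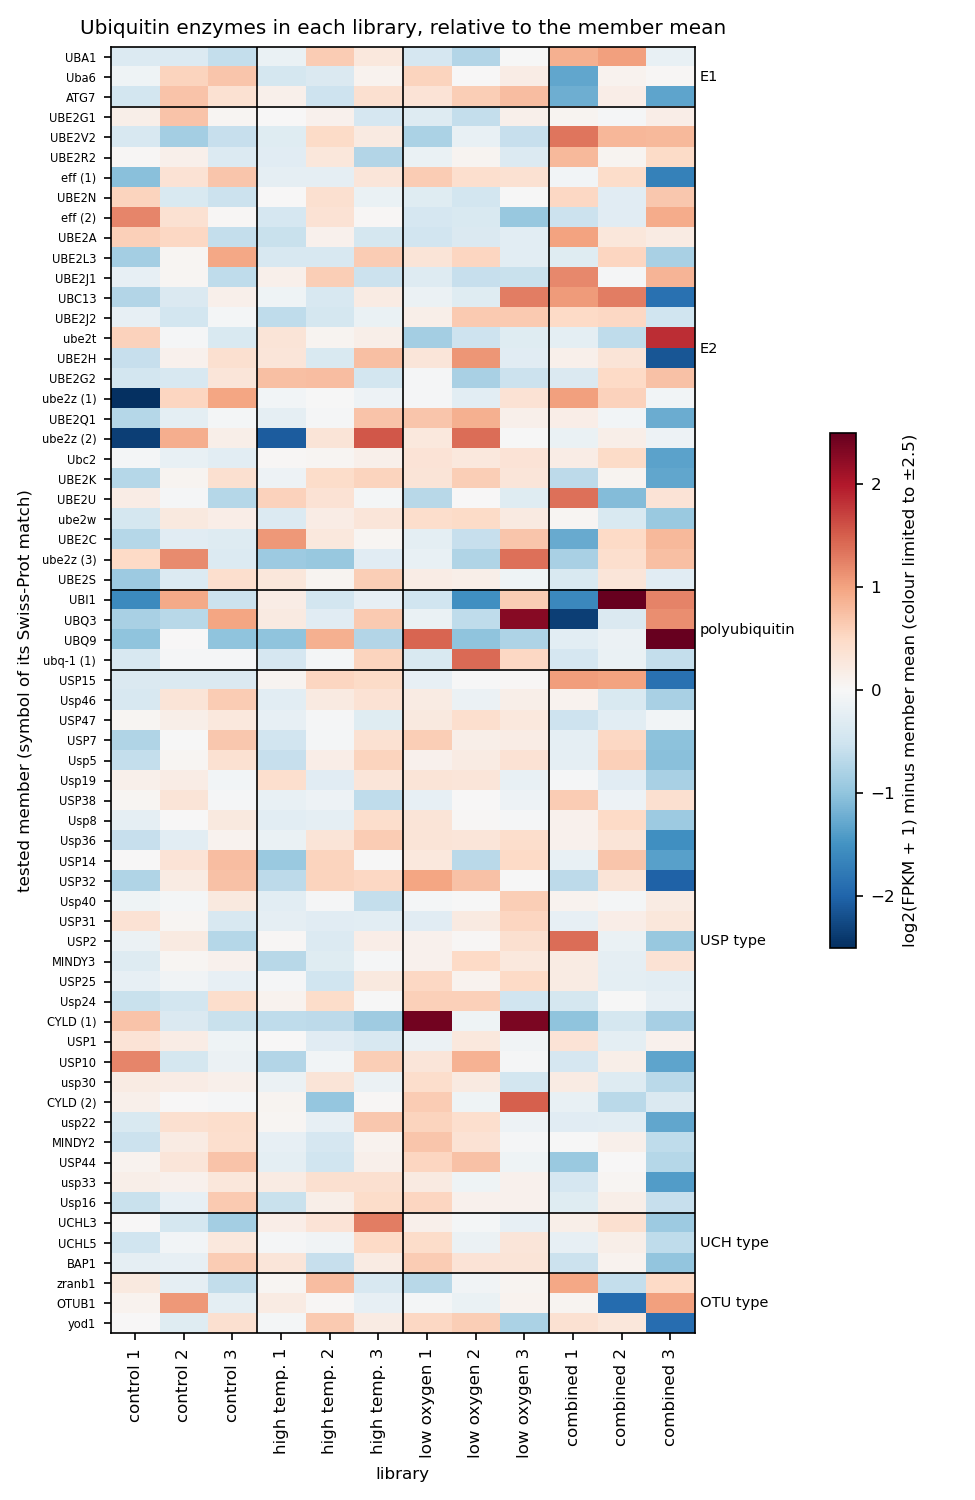
Heat map of 64 of the 66 tested members (rows, grouped by class) in the 12 libraries (columns), coloured by log2(FPKM + 1) minus the mean of that member, with the colour limited to ±2.5. Combined library 3 holds the lowest value of the 12 for 29 of the 66 members, most of them in the USP block.

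Among the activating enzymes, UBA1 was the most abundant. It is the main ubiquitin-activating enzyme of animal cells and lies on chromosome 5 from position 29718475 to 29745320 with 24 exons (coordinates are those of the deposited annotation, whose genome build the sources do not name). Its levels were 29.6, 29.5 and 24.6 FPKM in control, 33.3, 59.2 and 45.4 at high temperature, 27.8, 22.4 and 37.3 at low oxygen, and 70.5, 77.5 and 33.0 under combined stress. Every library at 26 °C except combined 3 and high-temperature 1 was above all libraries at 18 °C, and neither warm group overlapped the controls. The log2 difference from control was 1.0 (SE 0.40, adjusted p = 0.296) under combined stress and 0.67 (SE 0.40, adjusted p = 0.849) at high temperature, so neither passed. Rescaling every library to the same FPKM total left 0.15 (adjusted p = 0.861) under combined stress.

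Uba6, which in vertebrates activates both ubiquitin and a ubiquitin-like protein, was at 3.87, 6.67 and 7.49 FPKM in control and at 1.14, 4.56 and 4.34 under combined stress. Its groups overlapped, with a log2 difference of -0.77 (adjusted p = 0.454). ATG7, which acts on relatives of ubiquitin and starts the conjugation steps of autophagy, was at 1.44, 4.49 and 3.37 FPKM in control, 3.24, 4.11 and 4.68 at low oxygen, and 0.445, 2.78 and 0.341 under combined stress. All its combined libraries were below all its low-oxygen libraries, with a log2 difference of -1.36 (adjusted p = 0.337).

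The E2 model UBE2V2 came nearest to the threshold. In yeast and human cells, this E2 variant lacks a catalytic cysteine and pairs with UBE2N to build ubiquitin chains used in DNA repair and signalling. The model has 4 exons on chromosome 9 from 28293866 to 28301864, and 25301 fragments were assigned to it over the 12 libraries. It was at 52.3, 38.2 and 46.1 FPKM in control, 55.6, 97.3 and 80.5 at high temperature, 39.5, 60.7 and 45.9 at low oxygen, and 175, 124 and 122 under combined stress. In deposited FPKM the combined libraries were above the other 9, and the high-temperature libraries were above the controls. Given as parts of each library's total FPKM set to 1000000, the combined libraries were at 238, 262 and 141 and the high-temperature libraries at 133, 229 and 312, so these groups overlapped on that scale. Group means were 45.5 ± 7.11, 77.8 ± 21.0, 48.7 ± 10.9 and 140 ± 30.2 FPKM in that order (SD, n = 3). The difference from control under combined stress was 1.60 on the log2 scale (SE 0.35, 95% interval 0.84 to 2.35) with a limma adjusted p of 0.0614. Weighting libraries by their quality brought it under the threshold (1.80, adjusted p = 0.0423), and rescaling to equal totals left 0.73 (adjusted p = 0.272). Over all alternatives the adjusted p ran from 0.0423 to 0.375. At high temperature the difference was 0.74 (adjusted p = 0.758) and at low oxygen 0.08 (adjusted p = 0.972).

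Its partner UBE2N did not separate the groups. It was at 63.6, 32.7 and 29.1 FPKM in control and at 61.5, 34.8 and 68.5 under combined stress, with the high-temperature libraries at 38.1 to 57.0 and the low-oxygen libraries at 31.0 to 42.5. The log2 difference between combined and control was 0.42 (adjusted p = 0.678). It turned to -0.44 (limma adjusted p = 0.412) after rescaling to equal totals.

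**Figure D2:**
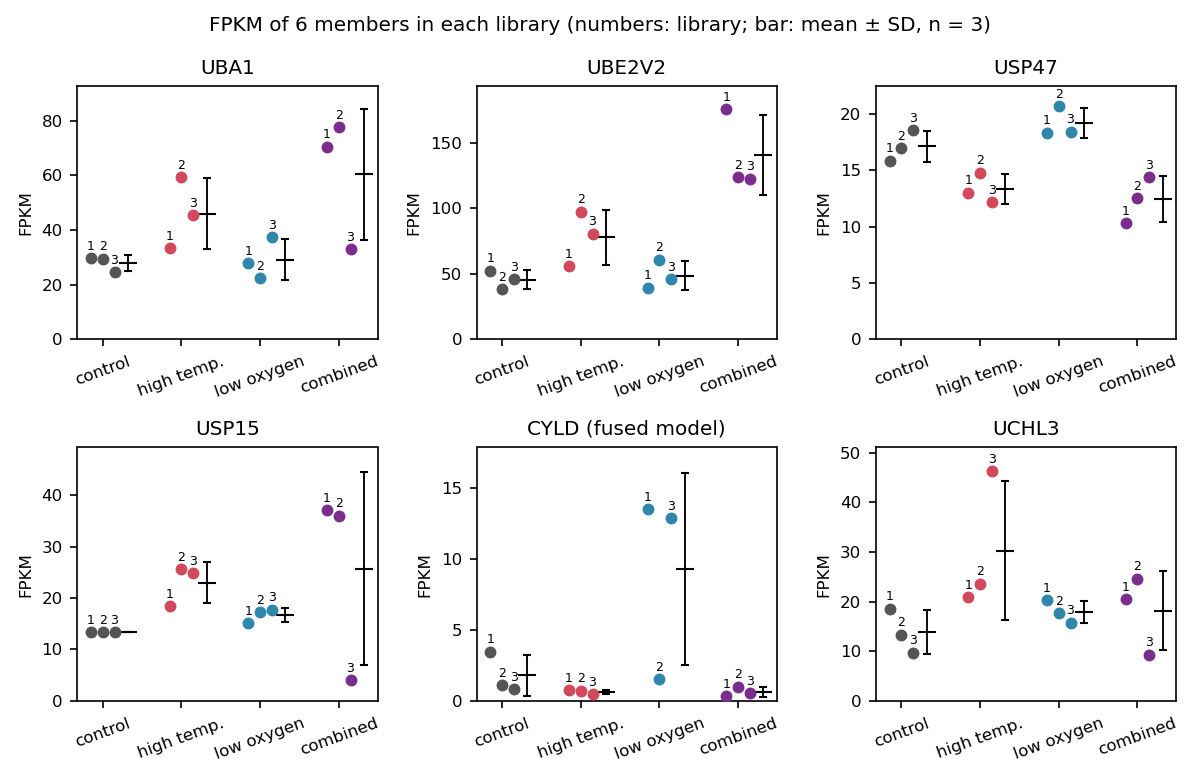
FPKM of 6 members in each library (numbered points), with bars for the mean ± SD of 3 libraries. UBE2V2 under combined stress lies at 122 to 175 FPKM, above the 9 other libraries, while USP15 splits within the combined group into 37.0, 36.0 and 4.08 FPKM.

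Other abundant E2 models were level across the groups or varied as much within them. UBE2G1, which in human cells extends chains with cullin ligases, was at 104, 155 and 96.9 FPKM in control and 98.4, 91.8 and 105 under combined stress (log2 difference -0.24, adjusted p = 0.798). UBE2R2, another partner of cullin ligases, was at 73.0, 77.6 and 55.9 FPKM in control and 127, 74.7 and 99.2 under combined stress, with overlap at 74.7 and 77.6 (log2 difference 0.52, adjusted p = 0.554). UBE2J1, an E2 anchored in the endoplasmic reticulum that serves the disposal of misfolded proteins there, was at 12.6, 15.2 and 9.08 FPKM in control, 11.5, 9.48 and 9.66 at low oxygen, and 34.9, 14.3 and 27.0 under combined stress. Its combined libraries lay above its low-oxygen libraries (log2 difference 1.16, adjusted p = 0.337) but overlapped the controls (0.93, adjusted p = 0.349). Rescaling to equal totals left 0.15 (limma adjusted p = 0.798) against low oxygen and 0.10 (limma adjusted p = 0.876) against control.

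The E2 models with the largest non-overlapping differences at low oxygen pointed both ways. UBE2J2, the second reticulum-anchored E2, was at 10.6, 8.68 and 11.9 FPKM in control and 13.9, 20.2 and 20.1 at low oxygen (log2 difference 0.73, SE 0.37, adjusted p = 0.792). UBE2Q1 was at 3.68, 5.46 and 6.42 FPKM in control and 11.3, 13.1 and 7.32 at low oxygen (log2 difference 0.89, adjusted p = 0.792). In both, every low-oxygen library exceeded every control library. The chromosome 22 model at 3316164 to 3328591, named after effete, the fly counterpart of the general-purpose UBE2D enzymes, was at 56.6, 31.1 and 24.1 FPKM in control and 17.5, 18.0 and 11.7 at low oxygen (log2 difference -1.13, SE 0.46, adjusted p = 0.746). A second effete model, at 368337 to 382434 on the same chromosome, overlapped between these groups at 31.6, 85.4 and 107 FPKM in control and 103, 88.6 and 85.6 at low oxygen. No source used here says how fragments were split between near-identical copies, so levels of models that share a name are uncertain. At high temperature, UBE2C, which works with the anaphase-promoting complex in mitosis, was at 4.43, 2.11 and 1.67 FPKM against 0.566, 1.12 and 1.07 in control (log2 difference 0.91, SE 0.55, adjusted p = 0.852).

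Summed over the 24 E2 models, the level was 494, 568 and 511 FPKM in control and 743, 618 and 610 under combined stress. The groups did not overlap on this scale, and without UBE2V2 they did (442 to 530 against 488 to 567 FPKM). Given as parts of each library's total FPKM set to 1000000, the mean of the control became the higher, at 1179.6, 1703 and 1464 in control and 1009, 1311 and 700.2 under combined stress, with overlap. Which group had the higher E2 sum therefore depended on the scaling.

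Polyubiquitin models at lower levels were uneven between libraries. UBI1 was at 1.87, 93.3 and 19.6 FPKM under combined stress and between 1.88 and 15.8 FPKM in control. UBQ3 had its highest value, 23.5 FPKM, in low-oxygen library 3 and was at 0 in combined library 1. UBQ9 was at 23.0 FPKM in combined library 3 and at most 4.47 FPKM elsewhere, from 206 fragments in all, the fewest of any tested member. None of these separated the groups. The UBI1 model also carried a B-box and a RING finger domain besides its ubiquitin domain.

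Among the USP-type deubiquitinases, USP15 was the most abundant and behaved differently in the libraries of the combined group. In human cells USP15 acts in TGF-beta and innate immune signalling. Its level was 13.4, 13.4 and 13.3 FPKM in control, 18.4, 25.6 and 24.8 at high temperature, 15.1, 17.3 and 17.7 at low oxygen, and 37.0, 36.0 and 4.08 under combined stress. Both single stresses lay above the controls without overlap, and the combined group held both the highest values of the 12 libraries and the lowest. The log2 differences were 0.72 (SE 0.62, adjusted p = 0.933) at high temperature, 0.30 at low oxygen (adjusted p = 0.936) and 0.42 under combined stress (adjusted p = 0.798). The last of these turned to -0.34 after rescaling and to -0.07 and -0.05 without combined library 1 or 2, and was 1.38 without combined library 3.

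USP47 lay the other way in warm water. It is a deubiquitinase of a DNA repair polymerase in human cells. Its levels were 15.9, 17.0 and 18.5 FPKM in control, 13.0, 14.8 and 12.2 at high temperature, 18.3, 20.7 and 18.4 at low oxygen, and 10.3, 12.5 and 14.4 under combined stress. All 6 libraries at 26 °C were below all 6 at 18 °C, with log2 differences from control of -0.34 at high temperature (adjusted p = 0.935) and -0.44 under combined stress (adjusted p = 0.531). USP38 also lay below control at high temperature, at 7.63, 7.90 and 5.29 against 9.15, 11.2 and 8.51 FPKM (log2 difference -0.43, adjusted p = 0.921), and overlapped control under combined stress, at 14.2, 7.89 and 11.9 FPKM.

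Lower-expressed hydrolases also lay below control under combined stress. USP44, which in human cells acts on histone H2B and in the spindle checkpoint, was at 2.31, 2.80 and 4.09 FPKM in control and 0.624, 2.11 and 0.892 under combined stress (log2 difference -0.91, SE 0.39, adjusted p = 0.330). The usp33 model was at 2.26, 2.17 and 2.60 FPKM in control and 1.22, 2.06 and 0.125 under combined stress (log2 difference -0.76, adjusted p = 0.411). At low oxygen the USP-type model with the largest non-overlapping difference above control was Usp36, a nucleolar enzyme, at 7.78, 7.65 and 8.49 FPKM against 3.67, 4.88 and 6.48 in control (log2 difference 0.60, adjusted p = 0.854).

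The models named CYLD, a brake on NF-kappa-B signalling in vertebrates that cuts signalling chains, varied between the libraries at low oxygen. The first, on the minus strand of chromosome 9 from 22640073 to 22753571, carries an identifier that joins 2 predicted genes. It was at 3.46, 1.12 and 0.842 FPKM in control, 0.745, 0.717 and 0.470 at high temperature, 13.5, 1.51 and 12.9 at low oxygen, and 0.350, 1.0 and 0.536 under combined stress. Low-oxygen libraries 1 and 3 were far above the other 10. The log2 difference from control at low oxygen was 1.62 (SE 0.61, adjusted p = 0.720), and that between combined stress and low oxygen was -2.31 (SE 0.61, adjusted p = 0.198). Without low-oxygen library 2 the latter was -3.14 and passed (adjusted p = 0.0140). The second CYLD model, 51121 bases away on the plus strand, was at 3.87, 1.93 and 7.89 FPKM at low oxygen and 1.76, 0.982 and 1.45 under combined stress, again without overlap (log2 difference -1.08, adjusted p = 0.369). It carries a CAP-Gly domain but no hydrolase domain in the deposited annotation.

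In the UCH family, UCHL3, an enzyme that trims small adducts from ubiquitin, had the largest non-overlapping difference of any member at high temperature. It was at 18.6, 13.3 and 9.75 FPKM in control, 20.9, 23.6 and 46.3 at high temperature, 20.3, 17.7 and 15.8 at low oxygen, and 20.5, 24.6 and 9.33 under combined stress. High-temperature libraries were above the controls, and the other stressed groups overlapped them. The log2 difference at high temperature was 1.03 (SE 0.44, adjusted p = 0.700). UCHL5, which can bind the proteasome, ranged from 3.84 to 9.58 FPKM, and BAP1, a histone H2A deubiquitinase, from 1.60 to 7.07 FPKM. All combined libraries of BAP1 were below its low-oxygen libraries (log2 difference -0.91, adjusted p = 0.401).

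The OTU models varied most within the combined group. The zranb1 model was at 41.2, 13.2 and 29.4 FPKM there and at 24.7, 17.4 and 13.1 in control (log2 difference 0.48, adjusted p = 0.685). OTUB1, which in human cells can also block UBE2N without cutting ubiquitin, was at 11.4, 2.14 and 23.0 FPKM under combined stress and 11.5, 24.0 and 8.98 in control (log2 difference -0.58, adjusted p = 0.712). The yod1 model, whose human counterpart serves disposal of proteins from the endoplasmic reticulum, was at 3.88, 3.59 and 0 FPKM under combined stress and 2.80, 2.04 and 3.99 in control.

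Counts of members whose libraries did not overlap between groups were read against the same counts over all genes. At high temperature 6 of 66 members lay wholly above control and 3 wholly below, where 6.87% and 7.24% of all genes tested did. At low oxygen 7 lay above and 1 below, where 7.58% and 8.66% of all genes did. Under combined stress 2 lay above, UBA1 and UBE2V2, and 4 below, USP47, USP44, usp33 and the second CYLD model, where 6.36% and 8.06% of all genes did. The share of members exceeded that of all genes above control at high temperature and at low oxygen, and was below it in the other 4 counts. The 3 comparisons share their control libraries.

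**Figure D3:**
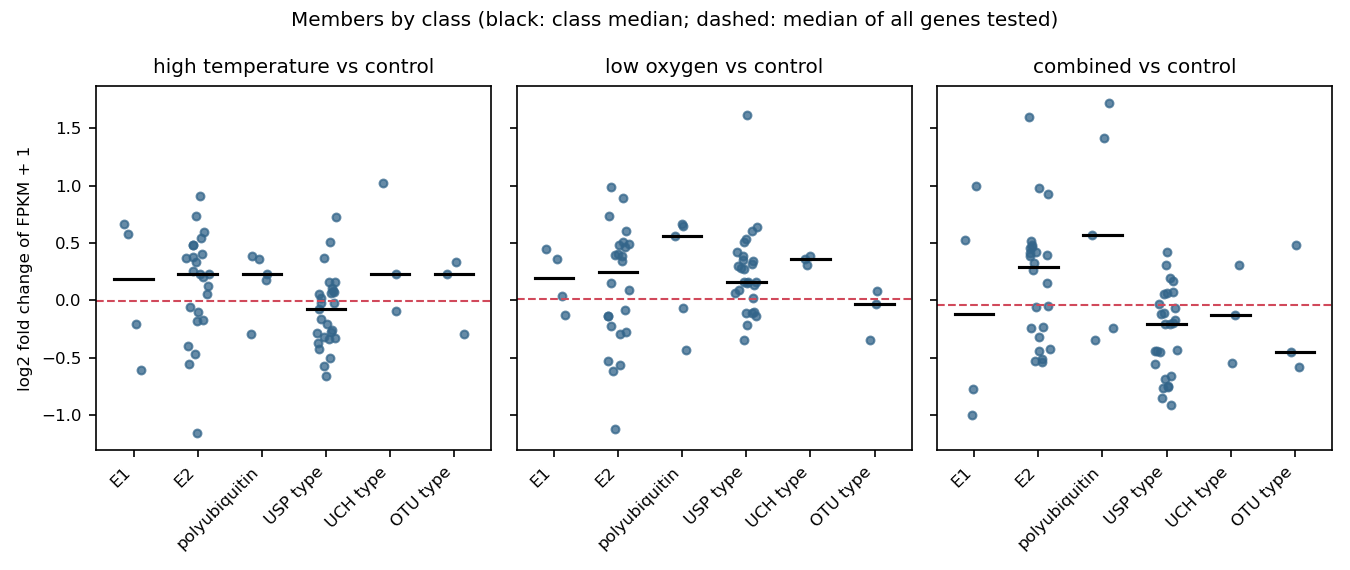
Log2 fold changes of FPKM + 1 against control for the 66 tested members by class (points), with class medians in black and the median of all genes tested dashed, for the 3 stressed groups. Of the 27 USP-type points, 21 are above 0 at low oxygen and 7 under combined stress, and none of the points passed the test.

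Signs and medians were counted by class, with no test of the difference between classes. Of 27 USP-type members, 11 had a positive log2 difference at high temperature, 21 at low oxygen and 7 under combined stress, with medians of -0.08, 0.16 and -0.21. Of 24 E2 members, 16, 14 and 14 were positive, with medians of 0.23, 0.25 and 0.29. Over all genes tested 49.6%, 50.8% and 47.2% were positive. Of the 28 members positive under combined stress, 21 turned negative after rescaling to equal FPKM totals. The combined-stress counts then became 4 of 24 for E2, with a median of -0.48, and 0 of 27 for the USP type, with a median of -0.90, while the median of all genes itself shifted to -0.62. For all 66 members the medians were 0.07, 0.22 and -0.11, beside -0.01, 0.01 and -0.05 for all genes. These values rested partly on single libraries: without combined library 3, 10 of 27 USP-type members were positive under combined stress, with a median of -0.04, and the median of all members was 0.07. Without control library 1, 17 of 27 USP-type members were positive at low oxygen, with a median of 0.09. Leaving out the same library took the E2 counts to 12, 13 and 12 of 24 and their medians to 0.00 at high temperature, 0.03 at low oxygen and -0.08 under combined stress, and the median of all members at high temperature to -0.14. Of 3 tested germ line markers, 3 were positive at high temperature, 3 at low oxygen and 0 under combined stress. The part of these markers in the USP-type counts was not tested.

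Combined stress was then set beside each single stress, which asks what low oxygen adds in warm water and what warmth adds in oxygen-poor water. Against high temperature 0 members rose and 0 fell, where 0.205% and 0.0128% of all genes did, and 2 members had an unadjusted p under 0.05 (6.65% of all genes). Against low oxygen 0 rose and 0 fell, where 0.397% and 0.0256% of all genes did, and 10 members, 15.2%, had an unadjusted p under 0.05, against 12.4% of all genes. Voom called none in either. The median difference of the members was -0.12 from high temperature and -0.32 from low oxygen, beside -0.01 and -0.02 for all genes. Of 27 USP-type members, 3 were positive against low oxygen, with a median of -0.46. Without combined library 3 that became 6 of 27 and -0.25, and the members' medians became 0.04 from high temperature and -0.15 from low oxygen. After rescaling the members' medians were -0.81 and -1.10, where those of all genes were -0.62 and -0.72.

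Members above high temperature without overlap numbered 4, among them UBE2V2, UBE2A and USP31, and those below 3, Usp24, usp22 and usp33, against 4.97% and 4.53% of all genes. Against low oxygen 4 lay above, among them UBE2V2, UBE2A and UBE2J1, and 8 below, namely USP47, BAP1, UBE2K, ATG7, usp22, ube2w and both CYLD models, against 7.71% and 7.86% of all genes. The UBE2A model lies wholly within the span of an assembled FER model on the same strand, overlapping it over 14210 bases, and whether their exons share fragments was not tested. The UBE2A model carries no E2 domain in the annotation. The non-overlap counts above are on deposited FPKM. After rescaling to equal totals the log2 differences from high temperature became -0.04 for UBE2V2, -0.07 for UBE2A and -0.39 for USP31. Those from low oxygen became 0.46 for UBE2V2, -0.15 for UBE2A and 0.15 for UBE2J1. The differences of the members named as below stayed negative.

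The interaction asks whether the combined difference departs from the sum of the single ones. It was called for 0 members in either direction by limma and by voom, where 0.0512% of all genes were called positive and 0% negative. An unadjusted p under 0.05 was found for 3 members and for 6.56% of all genes. The median interaction of the members was -0.35 on the log2 scale, against 0.00 for all genes, and moved to -0.14 without combined library 3. For the USP type the median was -0.53 with 6 of 27 positive, and for E2 it was -0.05 with 12 of 24 positive. Without combined library 3 the USP-type median was -0.14 with 9 of 27 positive. After rescaling the medians were -1.28 for the members, -1.29 for the USP type and -1.01 for E2, beside -0.76 for all genes.

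**Figure D4:**
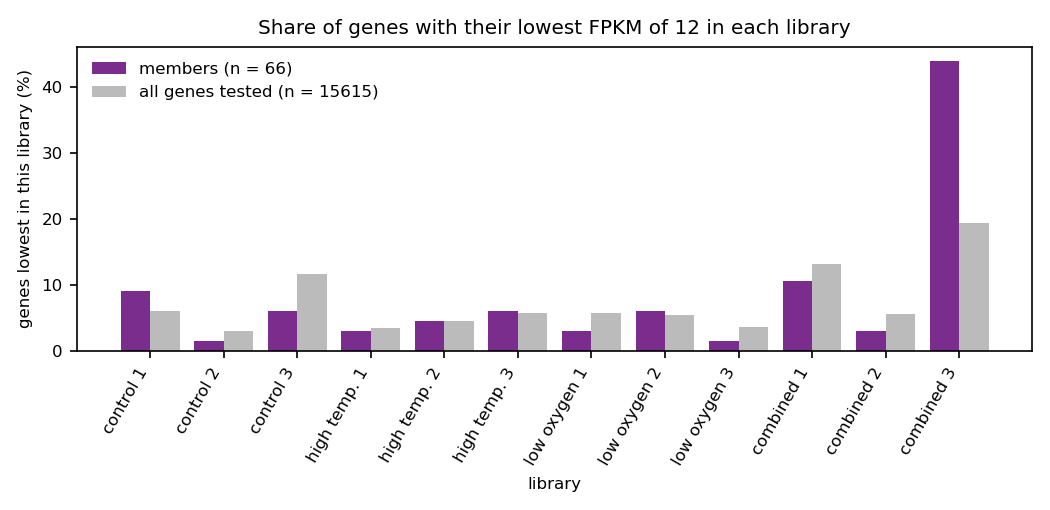
Share of genes (%) whose lowest FPKM of the 12 libraries falls in each library, for the 66 tested members and for all 15615 genes tested. Combined library 3 holds 43.9% of the members' lowest values and 19.4% of those of all genes.

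Combined library 3 held the lowest of the 12 values for 29 of the 66 members, 43.9%, where it did so for 19.4% of all genes tested. By class this was 16 of 27 USP-type members and 7 of 24 E2 members. It also had the fewest fragments assigned to members, 18133, near the 19895 of combined library 1 and the 21920 of control library 1. The most were 49805, in control library 2. The summed member level of combined library 3, 1144 FPKM, lay within the 835 to 1168 FPKM of the controls. As parts of each library's total FPKM set to 1000000 it was 1313, the lowest of the 12, against 1992 to 3502 in control. Combined library 3 also held the highest UBQ9 value of the 12 libraries and the highest UBE2N and OTUB1 values of its group. Within-group spread of the members was widest under combined stress, with a median SD of 0.65 on the log2 scale, beside 0.43 in control, 0.36 at high temperature and 0.31 at low oxygen. For all genes the same medians were 0.71, 0.50, 0.46 and 0.41. The part of library quality in these values was not tested.

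Genes that work with the members were counted in the same fit. Of 120 tested E3 ligases, 52 had a positive difference under combined stress, with a median of -0.07, and of 43 proteasome genes 30 were positive, with a median of 0.28. None of either list passed. Cullins were positive for 1 of 6, other ubiquitin-like conjugation enzymes for 5 of 10 and other deubiquitinases for 3 of 11, again with none past the threshold. Of 6 genes for ubiquitin-binding shuttles and the segregase VCP, all 6 were positive, with a median of 0.58, and 1 rose. That gene was Sqstm1, or p62, a receptor that carries ubiquitin-tagged cargo to autophagy. It was at 81.3, 60.5 and 48.9 FPKM in control, 99.8, 105 and 119 at high temperature, 98.8, 89.8 and 89.6 at low oxygen, and 504, 3250 and 342 under combined stress. Every stressed library was above every control library, and the combined libraries were above all others. The log2 difference under combined stress was 3.71 (SE 0.65, adjusted p = 0.0215), and without combined library 2, the highest, it was 2.72 (adjusted p = 0.00444). The call was lost without control library 2 (adjusted p = 0.0761), without control library 3 (0.0966), with only control and combined libraries in the fit (0.185), with no filter (0.0506) and after rescaling to equal totals (0.0923). VCP, with a log2 difference of 0.80 (adjusted p = 0.300), did not pass. The list counts and medians above, and the VCP difference, are on deposited FPKM. Rescaling to equal totals moved the median of all genes under combined stress to -0.62, and no list counts after it are given here.

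The members were spread over 23 chromosomes with few neighbours. A pair of ube2z models lay 7274 bases apart on chromosome 10, with an assembled ube2z model further along the same chromosome. UCHL3 and USP38, which lay on different sides of control at high temperature, were 80041 bases apart on chromosome 13. Each of the 73 models carried a Pfam domain of its class in the deposited annotation except UBE2A and the second CYLD model.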

How the data were processed

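Gene-level FPKM values of 12 intestine libraries were deposited by the authors with gene models, Swiss-Prot names and Pfam domains. The sources name no aligner, counter, genome build or strand setting, and models that overlap may share fragments. The deposited FPKM values were whole multiples of 1 fragment for 100.0% of values, which gave back fragment counts and the depth per library.

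The members, the pathway lists and the marker lists were chosen with earlier results of these data known. Main test: limma 3.58.1 in R 4.3.3 on log2(FPKM + 1), genes at 1 FPKM or more in at least 3 libraries, 1 mean per group over all 12 libraries, moderated with a trend, Benjamini-Hochberg adjustment over 15615 genes, threshold 0.05. Fold changes on this scale understate those of low genes. An exact permutation test of 3 against 3 libraries cannot go below p = 0.1 and was not used. The procedure was tested on simulated data, which held neither the different FPKM scaling of combined libraries 1 and 3 nor the wider spread of the combined group. Names in the text follow the non-overlapping members with the 3 largest differences each way in each comparison with control, and the 3 most abundant of each class. UBE2N, the second effete and CYLD models, UBQ9, usp37, UBE2J1 and members named from the comparisons of combined with single stress were chosen after their values were seen. In other lists, up to 2 genes with the smallest adjusted p could be named. Some members that this rule selects stay in the counts, medians and sums but are not reported singly here.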

Additional observations from a re-analysis of the deposited data

How the results depend on the processing

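Alternatives were other pseudocounts (0.1, 0.5), no filter or 5 FPKM, the compared groups alone, library weights, equal FPKM totals, voom, a replicate block, matching of names without regard to case (70 tested members) and each library left out in turn. Of the counts of members that rose or fell, 2 moved. With library weights 1 member, UBE2V2, rose under combined stress against control. Leaving out 1 library gave 0 to 1 members that fell under combined stress against low oxygen, the 1 being the first CYLD model. After rescaling to equal totals the median of all genes shifted to -0.62 against control, and the members' median to -0.72. Several differences of named members from control under combined stress, none of them past the threshold, changed sign. After rescaling they were -0.38 for UBE2J2, -0.44 for UBE2N, -0.35 for UBE2R2 and -0.49 for UCHL3. On that scale the differences were also -0.34 for USP15, -0.60 for USP38 and -0.36 for zranb1. With library weights they were 0.045 for UBE2Q1, 0.089 for Usp36 and 0.061 for yod1. With combined library 2 alone they were 0.019 for BAP1, 0.26 for UBE2Q1, 0.26 for UCHL5, -0.25 for USP38, 0.56 for Usp36, 0.25 for yod1 and -0.40 for zranb1. Leaving out 1 library gave -1.23 to 0.24 for OTUB1, -0.33 to 0.38 for UBE2Q1, -1.18 to 0.57 for UBQ3, -0.32 to 0.074 for UCHL5, -0.066 to 1.38 for USP15, -0.46 to 0.46 for Usp36 and -0.85 to 0.29 for yod1. Same-numbered libraries had correlations of their deviations of -0.17 to 0.18, with a median of 0.07 and 6 of 18 over 0.1. For libraries with different numbers the median was -0.01, with 8 of 36 over 0.1. These correlations cannot settle whether the numbers pair the samples, because each deviation is from a mean of 3 libraries. With the replicate block 0 members passed in any comparison. With the combined group as library 2 alone, an alternative chosen after seeing the data, 0 passed as well. The count of fragments limits members at low levels most.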
